A study of Sus scrofa with 11 samples.

Results

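The mitochondrially encoded transcripts are the 37 genes of the 35670 in the deposited count table whose annotated chromosome is MT, the circular mitochondrial genome. By the RefSeq annotation at the same positions they are 13 protein-coding genes, 2 ribosomal RNA (rRNA) genes and 22 transfer RNA (tRNA) genes. The rule takes every gene on MT and uses no measured value, but it was set with earlier results of these data known. Of the 37, 15 passed the filter on low counts (all 13 protein-coding genes and both rRNA genes) and 0 of the 22 tRNA genes did.

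The mitochondrial genome is transcribed from both strands as long precursors that are cut at the tRNAs into mRNAs, rRNAs and tRNAs. Its mRNAs encode core subunits of the respiratory chain and of ATP synthase, while all other subunits, and every factor that copies or transcribes the genome, are made from nuclear genes. Mitochondrial mRNAs carry short poly-A tails, with ND6 a known exception in other mammals, so a library built on poly-T beads samples them together with nuclear mRNA. In the artery wall, smooth muscle cells, endothelium, fibroblasts and invading leukocytes all contribute to this pool.

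RNA was measured by poly-A selected sequencing of carotid artery from pigs (Sus scrofa) kept for 12 weeks on a Western diet rich in fat and calories. Once a week, under general anaesthesia, every animal received an intravenous infusion lasting about 15 to 30 minutes. The SWNT group received 400 nM of the carrier alone (single-walled carbon nanotubes), and the SWNT-SHP1i group 400 nM of the carrier loaded with an inhibitor of SHP-1, a phosphatase that relays the inhibitory signal of the macrophage receptor for CD47. The study asked whether this nanotherapy lowers vascular inflammation and the load of dying cells without anaemia. The labels do not state breed, sex or age, and no animal was left uninfused, so the comparison is between loaded and unloaded carrier. Of 6 SWNT-SHP1i samples listed, replicate 4 is labelled as having died before harvest and is not analysed here, which leaves 5 libraries in each group. Each library comes from its own animal, and replicate numbers were given here in the order of listing, so equal numbers pair nothing. Among the 10 animals with a library, numbers begin with B9 except for SWNT replicate 3 and SWNT-SHP1i replicate 3, whose numbers begin with B3. The animal that died also has a B3 number, and the labels do not call this a batch.

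Total counts per library ran from 27593564 to 47718854. All 8 contractile smooth muscle markers (among them MYH11, ACTA2 and CNN1) were measured. Their summed levels were 39535 to 55027 counts per 1000000 counts (CPM) in SWNT and 15161 to 46622 CPM in SWNT-SHP1i. The 8 fibroblast markers summed to 37581 to 86422 CPM in SWNT and 67715 to 107530 CPM in SWNT-SHP1i. No threshold was set for these sums, so they describe the tissue and do not test it. SWNT-SHP1i replicate 3 stood apart before any comparison. It had 14479 nuclear genes with at least 1 count, against 17242 to 19923 in the other 9 libraries, and thinning every library to 26889129 nuclear counts left 14462 against 17181 to 19679. Shares and fold changes of the mitochondrial members are therefore given with and without this library. Fold changes of marker lists and of nuclear gene lists include it throughout.

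The mitochondrial share of all counts did not separate the groups. In SWNT replicates 1 to 5 the share was 1.73%, 1.59%, 2.97%, 1.42% and 1.16%. In SWNT-SHP1i replicates 1, 2, 3, 5 and 6 it was 2.28%, 1.84%, 8.61%, 1.71% and 2.55%. SWNT-SHP1i replicate 3 lay far above the rest, and the other 4 SWNT-SHP1i libraries lay inside the range of SWNT. The widest 95% Wilson interval of any of these shares spans 0.0179 percentage points, so counting error is far below the spread between animals (intervals cover counting error only, since reads are not independent molecules). In bulk tissue, fewer cells of a type and less RNA per cell cannot be told apart.

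The mean share was 1.77% ± 0.70 (SD, n = 5) in SWNT and 3.40% ± 2.93 (SD, n = 5) in SWNT-SHP1i, a difference of 1.62 percentage points that is smaller than the SD within SWNT-SHP1i. Without replicate 3 the SWNT-SHP1i mean was 2.09% ± 0.39 (SD, n = 4) and the difference 0.32 percentage points, below the SD of either group. The SWNT library with the highest share is likewise the one library of its group from outside the B9 number range. Among the 8 animals with B9 numbers the share was 1.48% ± 0.25 (n = 4) in SWNT and 2.09% ± 0.39 (n = 4) in SWNT-SHP1i, with 3 of 4 SWNT-SHP1i libraries above the highest SWNT library and the fourth (1.71%) just below it (1.73%). That difference, 0.62 percentage points, was larger than the SD of either group, in a subset chosen after seeing the data. The B3 range holds 1 library of each group, so no spread can be given there.

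**Figure D1:**
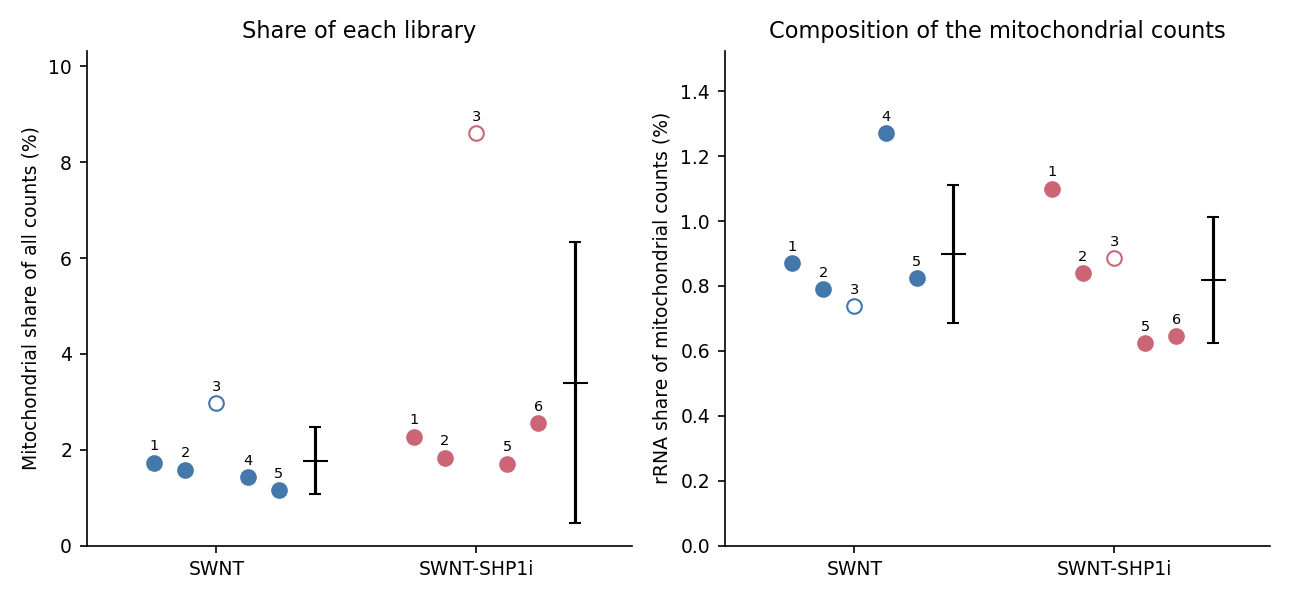
Left, mitochondrial share of all counts in percent, and right, rRNA share of the mitochondrial counts in percent, per library and group, with replicate numbers. Open points are the animals with B3 numbers, and bars are mean ± SD over 5 libraries. SWNT-SHP1i replicate 3 sits at 8.61% and all other libraries at 2.97% or below.

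The 3 libraries with the highest mitochondrial share were also those with the fewest nuclear genes detected. After SWNT-SHP1i replicate 3 came SWNT replicate 3 (2.97%, 17181 genes at equal depth) and SWNT-SHP1i replicate 6 (2.55%, 17673 genes). The remaining 7 libraries had 18799 to 19679 genes at equal depth. The part that this difference in detected genes has in the mitochondrial share was not tested.

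Among 12 marker lists of cell types and stress, SWNT-SHP1i replicate 3 had the highest summed level in 1, skeletal muscle (177 CPM, with 21.6 to 160 CPM elsewhere), and the lowest in 1, heart muscle (all 5 measured markers at 0, with sums of 5.099 to 11.0 CPM elsewhere). Nearly all of its skeletal muscle sum came from CKM, the muscle creatine kinase, at 162 CPM, and 8 of the 11 measured skeletal muscle markers were at 0 in that library, among them the fast myosins MYH1 and MYH2, which reached at most 0.189 CPM in any library. CKM was also high in SWNT-SHP1i replicates 1 (146 CPM) and 6 (79.1 CPM), with 7.22 to 23.6 CPM in SWNT. Its contractile smooth muscle sum was 25899.8 CPM and its macrophage sum 642 CPM, both inside the range of the other SWNT-SHP1i libraries (15161 to 46622 CPM and 238 to 1482 CPM). Between the groups, 8 of 8 macrophage markers had positive fold changes with an unadjusted p under 0.05 (sums of 211 to 584 CPM in SWNT), and 8 of 8 contractile smooth muscle markers had negative ones, 4 with such a p. Over all genes tested 4.64% had such a p in either direction. All 6 tested neutrophil markers were positive (4 with such a p, median 2.95), as were 8 of 8 fibroblast markers (2 with such a p, median 0.40), while 6 of 7 markers of Schwann cells and nerve were negative (2 of the 7 with such a p, median -0.67). The remaining 7 lists held 0 or 1 gene with such a p each. Of their tested markers, those negative were 4 of 4 for red cells (median -1.54) and 8 of 10 for immediate early and stress genes (-0.69). They were 5 of 8 for fat (-0.24), 5 of 8 for lymphocytes (-0.09) and 2 of 2 for heart muscle (-0.18). Positive were 6 of 8 for endothelium (0.41) and 3 of 4 for skeletal muscle (1.30). Over all genes tested 50.8% were positive. No marker in any list passed after adjustment (edgeR). The part of these cell types in the mitochondrial share was not tested.

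**Figure D2:**
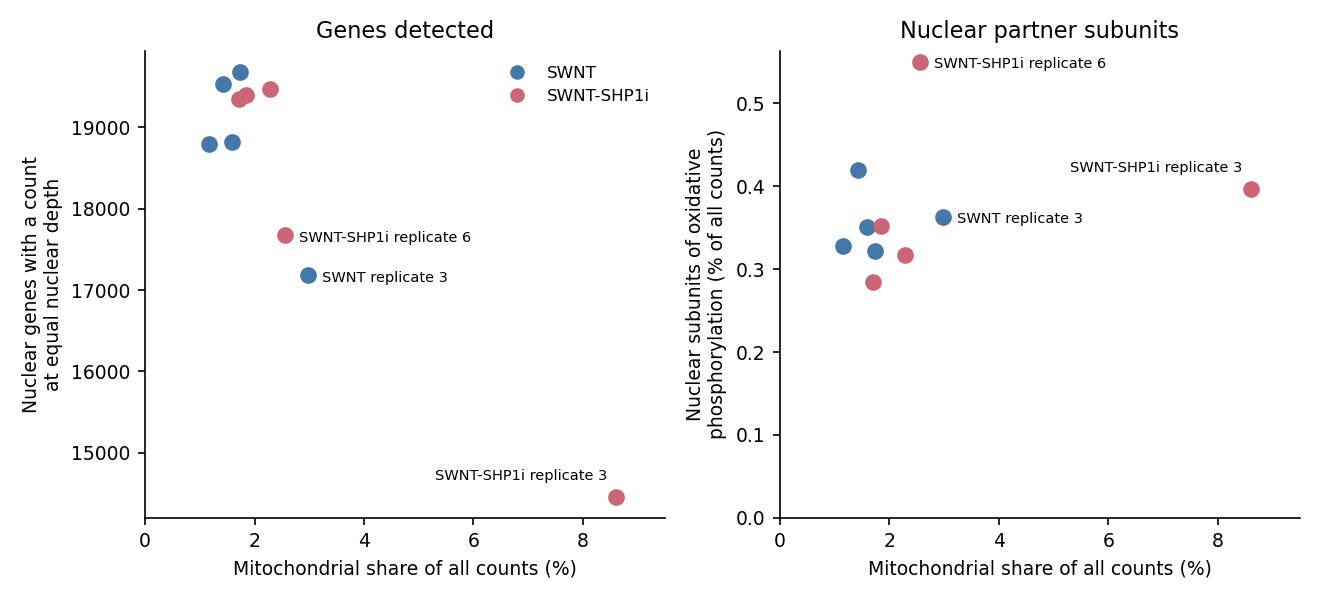
Mitochondrial share of all counts (percent, x axis) against the number of nuclear genes with a count at equal nuclear depth (left, axis not starting at 0) and against the summed share of nuclear subunits of oxidative phosphorylation (right, percent of all counts), with 1 point per library. SWNT-SHP1i replicate 3 has 14462 genes and an ordinary nuclear subunit share of 0.397%.

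The nuclear subunits of oxidative phosphorylation did not stand apart in SWNT-SHP1i replicate 3. The 70 measured of 77 listed, 4 of them from complex II, took 0.357% ± 0.039 (SD, n = 5) of all counts in SWNT and 0.380% ± 0.104 (n = 5) in SWNT-SHP1i. Without replicate 3 the SWNT-SHP1i mean was 0.376% ± 0.120 (n = 4). In SWNT-SHP1i replicate 3 these subunits took 0.397%, and the highest value, 0.550%, was in replicate 6. Mitochondrial mRNA counts exceeded nuclear subunit counts 3.35- to 8.12-fold in SWNT. The excess was 21.5-fold for replicate 3 of SWNT-SHP1i and 4.61- to 7.11-fold for the rest of that group. The groups overlap in both measures, with and without replicate 3.

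Counts of the members differed by orders of magnitude even per length. In CPM per kilobase of gene, taken as the median over 10 libraries, ATP6 (3701), COX3 (3444), COX1 (2979) and COX2 (2607) were highest. ATP6 encodes the membrane subunit of ATP synthase that carries the proton path, and COX1 to COX3 the catalytic core of cytochrome c oxidase (complex IV). CYTB, the only mitochondrially encoded subunit of complex III, followed at 1378. The subunits of complex I came next, in the order ND4 (1184), ND3 (898), ND6 (768), ND2 (725), ND5 (595), ND4L (546) and ND1 (519).

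At the bottom were the larger rRNA (67.1), the smaller rRNA (56.7) and ATP8 (22.5), the small accessory subunit of ATP synthase. Compared within each library, 3 of the 14 pairs of neighbours in this order kept it in all 10 libraries. COX2 exceeded CYTB by 1.78- to 3.89-fold, CYTB exceeded ND4 by 1.02- to 2.20-fold, and ND1 exceeded the larger rRNA by 3.93- to 14.6-fold. The other 11 pairs changed places in at least 1 library, among them ATP6 and COX3 (ATP6 higher in 7 of 10), so their order is not separated from the spread between libraries. ATP8 and ATP6 share 43 bases of the map, ND4L and ND4 share 7, ATP6 and COX3 share 1, and ND5 and ND6 share 17 on opposite strands. No source used here gives the strand setting of the counting, so reads in these stretches, and reads antisense to ND6, cannot be assigned with certainty. No tRNA gene lies between ATP8 and ATP6, between ATP6 and COX3 or between ND4L and ND4. The counts of these genes, the low ones of ATP8 included, need not be levels of separate mRNAs.

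**Figure D3:**
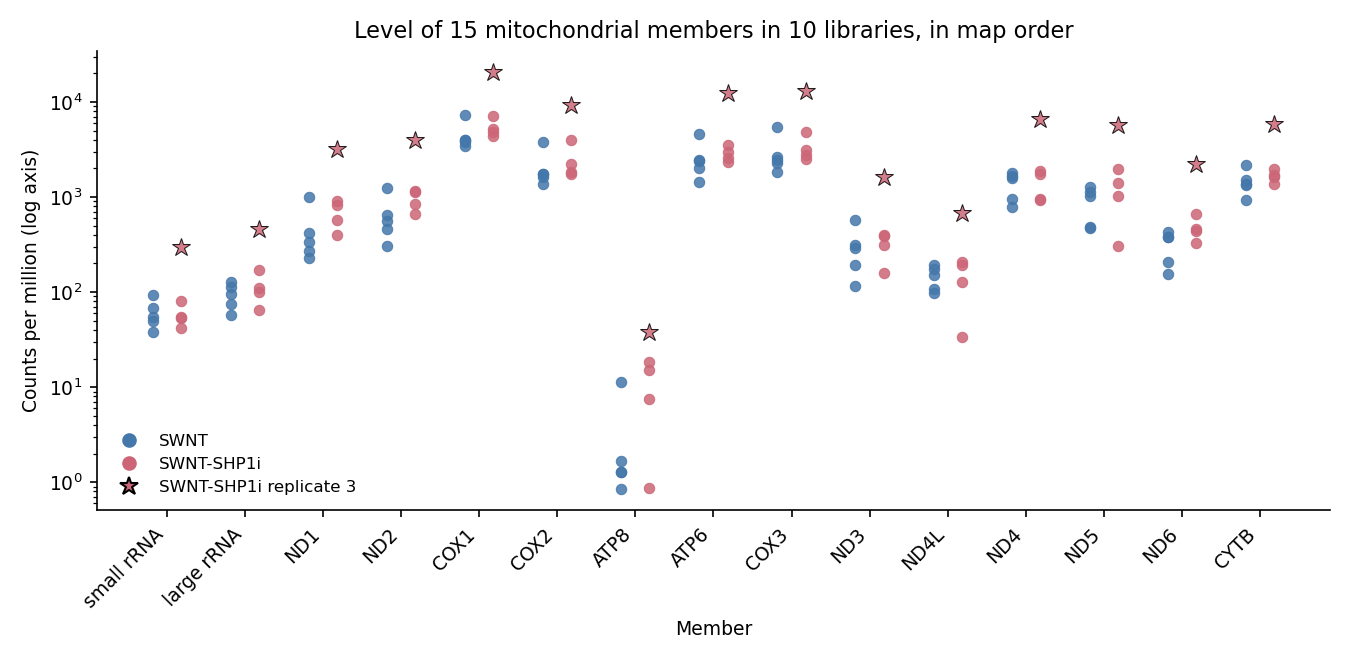
CPM (log axis) of the 15 tested members, in map order, with 1 point per library. The star, SWNT-SHP1i replicate 3, is the highest point of all 15 members, while the other libraries of both groups overlap.

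In plain CPM, SWNT-SHP1i replicate 3 had the highest level of 15 of 15 members, and SWNT replicate 5 the lowest of 11. COX1 (MT positions 6511 to 8055, plus strand), the most abundant member, stood at 3968, 3463, 7302, 3970 and 3797 CPM in SWNT replicates 1 to 5. In SWNT-SHP1i replicates 1, 2, 3, 5 and 6 it stood at 5139.9, 4382, 20821, 4825 and 7151 CPM. COX1 was thus above 4 of the 5 SWNT libraries in every SWNT-SHP1i library, with SWNT replicate 3 above all SWNT-SHP1i libraries except replicate 3.

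CYTB (15342 to 16481, plus strand) stood at 1525, 1358, 2178, 1338 and 929 CPM in SWNT. In the SWNT-SHP1i libraries, in the same order as before, CYTB stood at 1989, 1616, 5800.1, 1364 and 1690 CPM. Its groups overlap, with only replicate 3 above the highest SWNT library.

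ND6 (14739 to 15266), the only protein-coding member on the minus strand, stood at 376, 382, 429, 206 and 155 CPM in SWNT. In SWNT-SHP1i ND6 stood at 663, 435, 2212, 326 and 458 CPM. Thus 4 of 5 SWNT-SHP1i libraries lay above the highest SWNT library, and replicate 5 lay within the SWNT range. For 0 of 15 members did all SWNT-SHP1i libraries lie above all SWNT libraries, which 0.0502% of all genes tested did.

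No member passed the test between the groups. The quasi-likelihood test of edgeR called 0 of 15 members and 0 of 15930 genes at an adjusted p under 0.05 (background 0.0% of genes tested). DESeq2 and limma-voom also called 0 genes, and 739 genes had an unadjusted p under 0.05 in edgeR, 986 in DESeq2 and 1400 in limma-voom. All 15 members had positive log2 fold changes (SWNT-SHP1i over SWNT), where 50.8% of all genes tested did. The median over the 13 mRNAs was 0.95, beside a median of 0.0056 over all genes, and members of a precursor transcribed together are not independent.

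ND6 had the smallest p and a log2 difference of 1.43 ± 0.53 (SE, unadjusted p = 0.0183, adjusted p = 0.997, edgeR). ND1 (1.41 ± 0.60) and ND2 (1.31 ± 0.53), subunits of the membrane arm of complex I, and ATP8 (2.28 ± 0.94) also had an unadjusted p under 0.05. Among all genes, 3.49% had such a p and were higher in SWNT-SHP1i. The other 11 members had log2 fold changes from 0.80 (ND4L and CYTB) to 1.26 (ND5).

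Without SWNT-SHP1i replicate 3 these values were much smaller. The median of the 13 mRNAs was 0.30, 13 of 15 members remained positive where 51.2% of all genes tested were, and 0 members had an unadjusted p under 0.05 (4.19% of all genes). Again 0 members and 0 genes passed with edgeR (background 0.0%). ND6 then had a log2 fold change of 0.63, ND1 of 0.62, ND2 of 0.59, COX1 of 0.30 and ND4 of 0.02, while ND4L (-0.05) and the smaller rRNA (-0.04) were negative. Without SWNT replicate 3, the other animal with a B3 number, the median was 1.34, and among the animals with B9 numbers alone it was 0.59 with 15 of 15 members positive. An unadjusted p under 0.05 was then found for 5 of 15 members among the B9 animals (3.36% of all genes). With all libraries and the number range as a term in the fit it was found for 10 of 15 (4.17% of all genes), and in DESeq2 over all libraries also for 10 of 15 (6.25% of genes with a p). With 1 library left out, from 0 to 11 of 15 members had such a p. The 11 came without SWNT replicate 3 (3.57% of all genes). Without SWNT replicate 1, 2, 4 or 5 it was 1 of 15 each time (2.6% to 4.89% of all genes). In limma-voom it was 4 of 15 (8.79%), and without SWNT-SHP1i replicates 3 and 6 it was 0 (3.22%). No member passed after adjustment in any of these, and members share precursors.

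**Figure D4:**
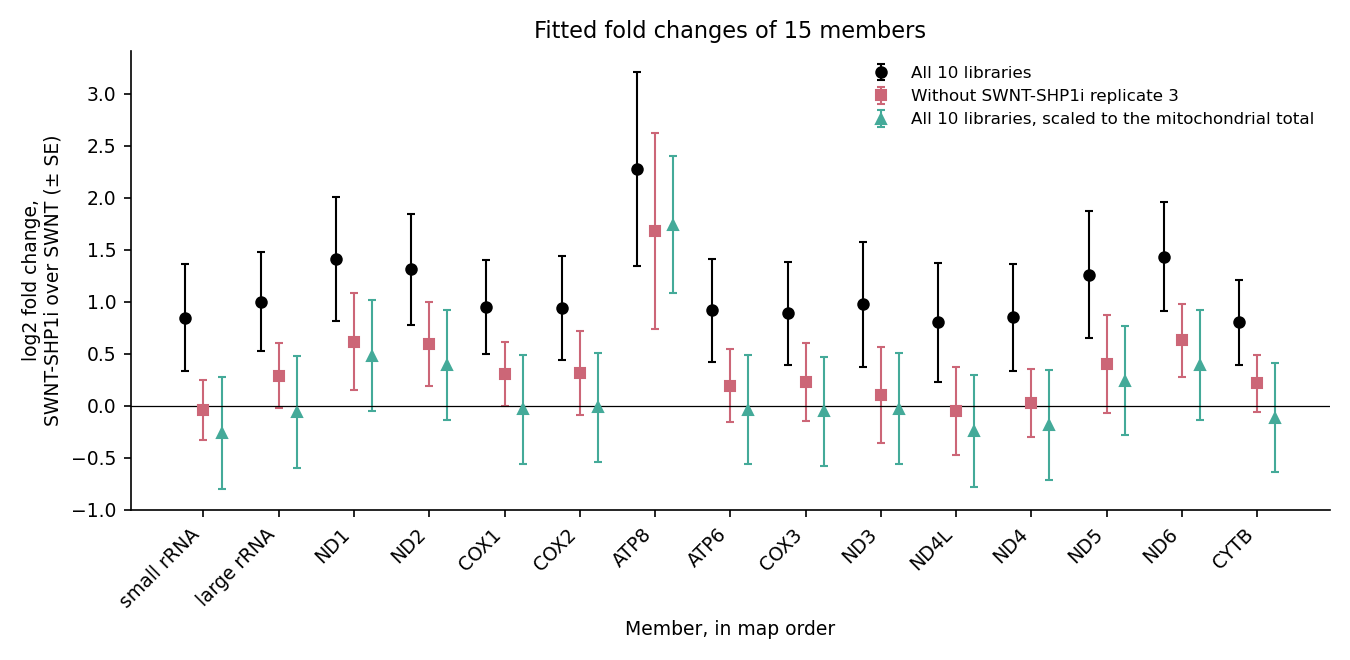
Log2 fold change of SWNT-SHP1i over SWNT with its standard error (SE) for the 15 members, over all 10 libraries (black), without SWNT-SHP1i replicate 3 (red) and with every library scaled to its own mitochondrial total (green). Values of 0.80 to 2.28 over all libraries drop to -0.05 to 1.68 without replicate 3, and scaled to the mitochondrial total they lie between -0.27 and 1.74.

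Shares within the mitochondrial counts do not use the nuclear counts. By complex, the 3 members of complex IV took 53.5% ± 5.5 (SD, n = 5) of mitochondrial counts in SWNT and 52.2% ± 6.4 (n = 5) in SWNT-SHP1i. The 7 members of complex I took 22.9% ± 4.9 and 25.3% ± 5.6, the 2 members of complex V 14.2% ± 1.1 and 13.9% ± 0.43, and CYTB 8.42% ± 0.79 and 7.77% ± 1.05. All 4 differences are smaller than the SD within groups. Without replicate 3 (n = 4) the SWNT-SHP1i means were, in the same order, 52.7% ± 7.2, 24.7% ± 6.3, 13.8% ± 0.40 and 8.03% ± 1.01. The difference for complex V, -0.47 percentage points, was then larger than the SD of SWNT-SHP1i but not that of SWNT. The other differences stayed below the SD of either group. COX1, COX3 and ATP6 together made up 49.5% to 60.9% of mitochondrial counts in each library.

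Some members kept nearly the same share in every library and others did not. ATP6 varied least, from 12.5% to 15.5% of mitochondrial counts (1.24-fold), followed by COX3 (13.8% to 18.8%), CYTB (6.62% to 9.41%) and COX1 (21.8% to 32.8%). SWNT-SHP1i replicate 3, whose mitochondrial share was the highest, lay within the range of the other 9 libraries in the share of 14 of 15 members, among them COX1 (24.2%), ATP6 (14.3%), COX3 (15.2%) and ND5 (6.63%). The exception was ND1, whose 3.70% was the highest of all libraries (1.90% to 3.64% elsewhere). CYTB (6.74%) lay inside only through SWNT-SHP1i replicate 6 (6.62%), with 7.33% to 9.41% in the other libraries. The widest ranges belonged to ATP8 (23.2-fold), ND4L (8.57-fold) and ND5 (7.13-fold). Without SWNT-SHP1i replicate 6 the range was 2.22-fold for ND4L and 2.52-fold for ND5, and that of ATP8 was the same.

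**Figure D5:**
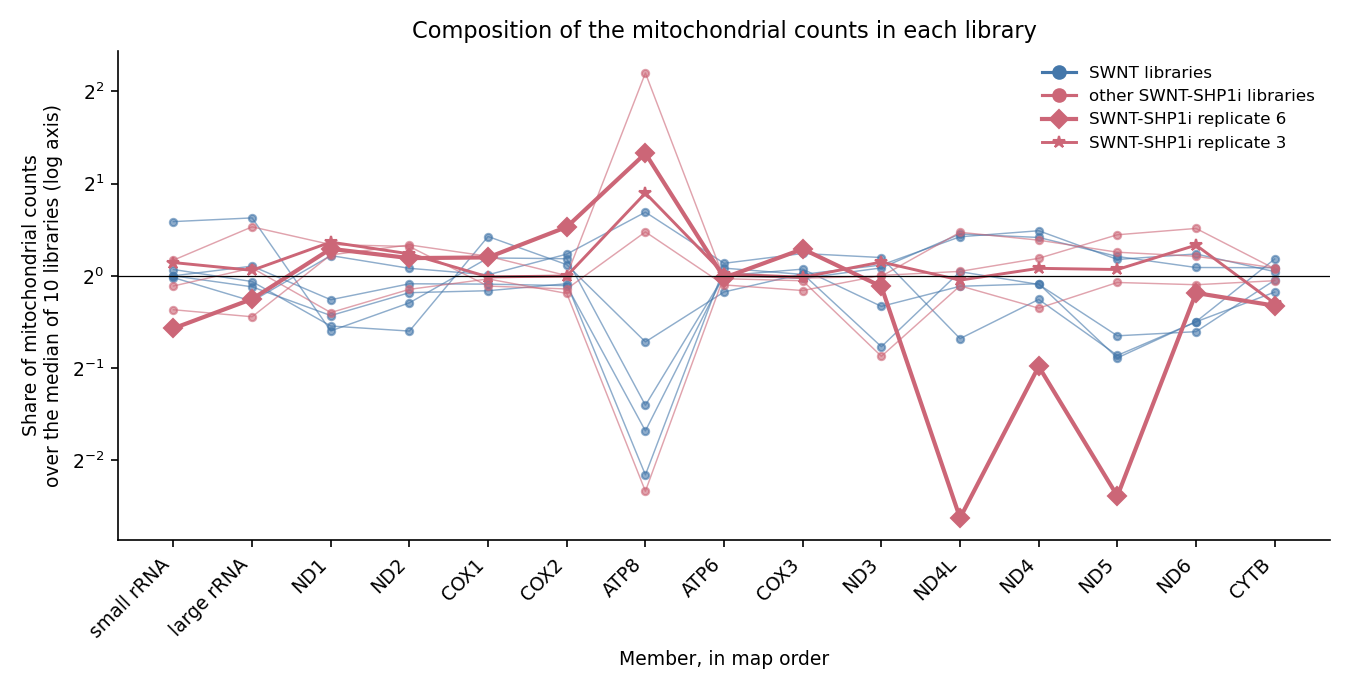
Share of mitochondrial counts of each member divided by its median over the 10 libraries (log axis), in map order, with 1 line per library. SWNT-SHP1i replicate 6 (diamonds) dips at ND4L, ND4 and ND5, and ATP8 spreads over the widest range.

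SWNT-SHP1i replicate 6 had low shares in a block of neighbouring complex I genes, which was noticed after the values were seen. ND4L (11069 to 11365), ND4 (11359 to 12736) and ND5 (12935 to 14755) lie in a row on the plus strand with only tRNA genes between ND4 and ND5. ND5 encodes the distal proton-pumping subunit of complex I, ND4 its neighbour in the membrane arm, and ND4L a small core subunit.

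ND5 took 7.31%, 7.15%, 3.48%, 3.41% and 4.03% of mitochondrial counts in SWNT. In SWNT-SHP1i replicates 1, 2, 3 and 5 it took 8.61%, 7.55%, 6.63% and 6.02%, and in replicate 6 it took 1.21% (95% Wilson interval 1.18% to 1.23%). Replicate 6 thus lay far below the next lowest library for this gene.

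ND4L took 1.12%, 1.09%, 0.508%, 0.753% and 0.841% in SWNT. In SWNT-SHP1i it took 0.842%, 1.13%, 0.789% and 0.756%, and 0.132% in replicate 6 (interval 0.124% to 0.141%). Its library order was otherwise mixed between the groups, with SWNT replicate 3 the next lowest.

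ND4 took 9.59%, 10.1%, 6.02%, 6.77% and 6.74% in SWNT. In SWNT-SHP1i it took 8.20%, 9.40%, 7.61% and 5.64%, and 3.64% in replicate 6. The same library was again the lowest, though by less than for ND5 or ND4L.

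The genes on either side of this block did not show the same dip. ND3, just before it, took 1.56% in replicate 6, within the 0.924% to 1.94% of the other libraries. ND6, on the opposite strand just after it, took 1.79%, within 1.34% to 2.91%. CYTB, next again, was lowest in replicate 6 at 6.62%, close to the 6.74% of replicate 3.

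Count ratios between neighbours show the block most directly. In SWNT-SHP1i replicate 6 there were 1.49 ND6 counts per ND5 count, with 0.297 to 0.424 elsewhere. Replicate 6 had a ratio of ND4L to ND4 of 0.0363, against 0.0844 to 0.134 elsewhere, and a ratio of ND5 to CYTB of 0.182, against 0.363 to 0.986. The same library had the largest shares of COX2 (15.6%, others 9.44% to 12.7%) and COX3 (18.8%, others 13.8% to 18.2%). It was also the shallowest library and held the lowest contractile smooth muscle sum (15161 CPM) and the highest macrophage (1482 CPM) and neutrophil (292 CPM) sums of all 10. The part of these in the composition was not tested.

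ND1, ND2 and ATP8 showed a different pattern across libraries. ND1 (3922 to 4876, plus strand) took 2.40%, 2.13%, 3.35%, 1.90% and 1.97% of mitochondrial counts in SWNT. In SWNT-SHP1i replicates 1, 2, 3, 5 and 6 it took 3.64%, 2.18%, 3.70%, 3.37% and 3.52%. Here 4 of 5 SWNT-SHP1i libraries lay above the highest SWNT library, replicate 2 lay within the SWNT range, and there was a gap between 2.40% and 3.35% with no library in it.

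ND2 (5087 to 6128, plus strand) took 3.73%, 3.49%, 4.19%, 3.23% and 2.61% in SWNT. In SWNT-SHP1i it took 4.94%, 3.58%, 4.67%, 4.997% and 4.53%. The picture was the same as for ND1, with 4 of 5 SWNT-SHP1i libraries above every SWNT library and replicate 2 among the SWNT values.

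ATP8 (8959 to 9162, plus strand) rested on 54, 29, 542, 46 and 55 counts in SWNT and on 289, 34, 1430, 609 and 419 counts in SWNT-SHP1i. Set against ATP6, which partly overlaps it, there were 0.521, 0.355, 2.47, 0.635 and 1.16 ATP8 counts per 1000 ATP6 counts in SWNT. In SWNT-SHP1i there were 2.51, 0.333, 3.09, 7.90 and 4.28. SWNT replicate 3 and 4 of 5 SWNT-SHP1i libraries were thus high, and SWNT-SHP1i replicate 2 was the lowest of all 10.

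The 5 libraries with the largest share were the same for ND1, ND2 and ATP8: SWNT replicate 3 and SWNT-SHP1i replicates 1, 3, 5 and 6. No other member of the 15 had this set, which was noticed after the values were seen. The fifth and sixth largest shares differed 1.39-fold for ND1, 1.12-fold for ND2 and 2.29-fold for ATP8.

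When every library was scaled to its mitochondrial total in a fit over all genes, 5 of 15 members were positive and 0 passed. Those 5 were ATP8 (1.74 ± 0.66 SE, adjusted p = 0.640, edgeR), ND1 (0.48 ± 0.53), ND2 (0.40 ± 0.53), ND6 (0.39 ± 0.53) and ND5 (0.24 ± 0.53). The other 10 had log2 fold changes from -0.27 to -0.01. This scaling centres the members near 0 by construction, while the median over all genes was -0.61. The 9.63% of all genes that were positive and the 6 of 15930 (0.0377%) that passed carry that shift. They are therefore no background for the members. The spread in this fit was modelled over all genes, nuclear genes included. ATP6 had an SE of 0.52, though the SD of its share over the 10 libraries was 5.94% of the mean. The absence of a pass therefore says little about composition. Without SWNT-SHP1i replicate 3, ATP8 was at 1.78, ND1 at 0.43, ND2 at 0.39, ND6 at 0.35 and ND5 at 0.20, so that library moved the composition little.

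The rRNAs form the scaffold of the mitochondrial ribosome and made up 0.623% to 1.27% of the mitochondrial counts in these poly-A selected libraries. Their joint share was 0.869%, 0.790%, 0.737%, 1.27% and 0.824% in SWNT. In SWNT-SHP1i it was 1.10%, 0.838%, 0.885%, 0.623% and 0.645%. The groups overlap, with means of 0.898% ± 0.214 (SD, n = 5) and 0.818% ± 0.195 (n = 5), and without replicate 3 the SWNT-SHP1i mean was 0.801% ± 0.221 (n = 4). The difference of -0.080 percentage points is smaller than the SD of either group and was 0.013 without SWNT replicate 4.

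The larger rRNA (2274 to 3844) gave 1.37 to 1.75 counts per count of the smaller rRNA (1246 to 2205) in SWNT and 1.54 to 2.09 in SWNT-SHP1i. In SWNT-SHP1i, 3 of 5 libraries lay above every SWNT library. The larger gene is 1571 bases long and the smaller 960. Fitted log2 fold changes were 1.001 ± 0.474 (SE) for the larger and 0.85 ± 0.52 for the smaller. Without SWNT-SHP1i replicate 3 they were 0.29 ± 0.31 and -0.04 ± 0.29.

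Transfer RNAs were almost absent from the counts. The 22 genes held 86 counts in all libraries together, at most 0.0016% of the mitochondrial counts of a library, and 15 of them had 0 counts in every library, which allows up to 3 counts in each (0.0629 to 0.109 CPM, counting error only). The gene with the most, ENSSSCG00000018093 on the minus strand between ND6 and CYTB (15267 to 15335), had 49. In SWNT it had 2, 1, 0, 0 and 1 counts, and in SWNT-SHP1i 13, 6, 25, 1 and 0. ENSSSCG00000018076, on the minus strand just after COX1 (8059 to 8129), had 23 counts spread over 8 libraries, and the other 5 tRNA genes with any count had 1 to 6. These counts are too few for a comparison, and neither tRNA was picked before its values were seen.

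Nuclear genes of mitochondrial function were followed in 7 lists: RNA handling, DNA upkeep and biogenesis regulators, the nuclear subunits of complex I, of complexes III to V and of complex II, and mitochondrial mass. Of their 159 genes 148 were tested, 0 passed with edgeR (1 had an unadjusted p under 0.05) and 89 had positive fold changes (50.8% of all genes tested did). List medians lay between -0.05 and 0.16 (log2), beside 0.0056 over all genes. TFAM, which packages mitochondrial DNA and starts its transcription, differed by 0.05 ± 0.32 (log2 fold change, SE), and POLRMT, the mitochondrial RNA polymerase, by 0.08 ± 0.25.

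In SWNT-SHP1i replicate 3, where mitochondrial counts were highest, TFAM stood at 34.5 CPM (8.34 to 37.5 CPM in the other 9) and POLRMT at 40.1 CPM (33.5 to 66.5 CPM). TFAM was lowest in SWNT-SHP1i replicate 6 (8.34 CPM), and POLRMT was highest there (66.5 CPM). PPARGC1A, the coactivator of mitochondrial biogenesis, did not pass the filter and reached at most 0.461 CPM in any library.

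Among 33 genes of mitochondrial transcription and RNA handling, 16 had positive and 17 negative fold changes, and 0 passed. Those with the smallest p were PTCD2 (0.43 ± 0.24), REXO2, which degrades short RNAs (-0.30 ± 0.18), and SLIRP, which with LRPPRC stabilises mitochondrial mRNA (0.51 ± 0.32). Their summed level in SWNT-SHP1i replicate 3 was 672 CPM, inside the 640 to 767 CPM of the other libraries.

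Of 18 genes of mitochondrial DNA replication and upkeep, 7 had positive fold changes and 0 passed. For SLC25A4, the ADP/ATP carrier of muscle, the log2 difference was -0.58 ± 0.20 (SE, unadjusted p = 0.0144, adjusted p = 0.997, edgeR). SSBP1, the single-strand DNA-binding protein (-0.21 ± 0.19), and the helicase TWNK (-0.34 ± 0.30) were next.

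The 11 tested regulators of mitochondrial biogenesis had 6 positive fold changes, with NRF1 at -0.28 ± 0.19 (SE), PRKAA2, a catalytic subunit of AMP-activated kinase, at -0.73 ± 0.64 and GABPB1 at -0.24 ± 0.31. Of 17 tested genes of mitochondrial mass, 9 were positive, with the prohibitin PHB2 (0.44 ± 0.29), the import channel TOMM40 (0.52 ± 0.34) and the carrier SLC25A5 (0.47 ± 0.35) first by p. In both lists 0 genes passed.

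Nuclear subunits of complex I had 29 of 37 positive fold changes and a median of 0.12, with NDUFS4 at -0.30 ± 0.17 (SE), NDUFS3 at 0.44 ± 0.28 and NDUFA11 at 0.36 ± 0.28. Those of complexes III, IV and V had 20 of 28 positive and a median of 0.16, with COX5A at 0.54 ± 0.31, ATP5MC3 at 0.46 ± 0.29 and UQCRQ at 0.55 ± 0.35. Over all genes tested 50.8% were positive. The summed levels of these 2 lists were highest in SWNT-SHP1i replicate 6, at 2082 and 3067 CPM. The other SWNT-SHP1i libraries had 1050 to 1396 and 1527 to 2297 CPM, beside 1194 to 1570 and 1745 to 2282 CPM in SWNT. Complex II, which has no mitochondrially encoded subunit, had 2 of 4 positive, with SDHA at 0.10 ± 0.21, SDHD at -0.08 ± 0.17 and SDHC at -0.05 ± 0.17. The median of complex II was 0.0018. In these 3 lists 0 genes passed, and no mitochondrially encoded member did either. Beside these list medians over all libraries, the mitochondrially encoded mRNAs had a median of 0.95, and of 0.30 without SWNT-SHP1i replicate 3.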

How the data were processed

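The deposited table holds whole read counts per gene, without normalization, 1 column per animal. Trim Galore, STAR and DESeq2 and the build Sscrofa11.1 are named, without versions, in the submitters' processing notes. No source used here names the counting program, its strand setting, its handling of multiply mapping reads or the release of the annotation, so reads shared with nuclear copies of mitochondrial DNA cannot be told apart. Members were taken by their MT chromosome entry, and their biotype from RefSeq (Sscrofa11.1) at the same start and end. The table gives no names for the tRNA and rRNA genes.

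Counts were filtered with filterByExpr (minimum count 10), scaled by TMM and tested with the robust quasi-likelihood test of edgeR 4.0.16 (R 4.3.3), without covariates, with p-values adjusted by Benjamini and Hochberg's method across the 15930 genes that passed (threshold 0.05). The SE of a fold change is approximate, its absolute value divided by the square root of the F statistic. CPM are counts per 1000000 counts of the library, and the fold changes are log2. In simulated data for this comparison (15806 genes, 200 changed by a log2 fold of 2), 100% of the changed genes were recovered. Every simulated gene had a biological dispersion of 0.1, and no outlying library was simulated. In the real data the SD within groups of the median log2 CPM of the 13 mRNAs was 0.94. The recovery in simulated data therefore does not carry over to the members. Other fits used DESeq2 1.42.0, voom with quality weights (limma 3.58.1), upper-quartile or RLE scaling, a stricter filter or none, no robust step, the animal number range as a term, scaling to nuclear or mitochondrial counts, and left-out libraries. Shares are sums over members and carry no p. All 10 libraries were kept as separate replicates (the lowest median chi-square per gene of any pair was 5.50). The members and lists were chosen with earlier results of these data known. The text names all 13 mRNAs and both rRNAs, tRNAs that passed the filter (none did), the 3 nuclear genes per list with the smallest p, and TFAM, POLRMT and PPARGC1A. CKM, MYH1, MYH2 and both tRNA genes were named after their values were seen.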

Additional observations from a re-analysis of the deposited data

Results flagged for a closer look

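Within a group of 5 libraries, a value was marked when its gap to the nearest other library was more than 0.71 of the whole range of the group. Chance marks about 1 in 20 groups. Here 25 values were marked in 68 groups, and members of the same library are not independent.

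SWNT-SHP1i replicate 3 gave 14 of them. Its mitochondrial share of 8.61% compares with 1.71% to 2.55% in the other 4 SWNT-SHP1i libraries, and its ratio of mitochondrial mRNA to nuclear subunit counts of 21.5 with 4.61 to 7.11. In CPM it was marked for the smaller rRNA (300.2), the larger rRNA (461.7), ND1 (3188), ND2 (4021), COX1 (20821), ATP6 (12295), COX3 (13112), ND3 (1615), ND4L (679), ND4 (6546), ND6 (2212) and CYTB (5800.1).

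SWNT replicate 3 was marked in CPM for ND1 (994), COX1 (7302), COX2 (3767), ATP8 (11.4) and COX3 (5411), and for its ATP8 share of mitochondrial counts (0.0382%, against 0.0053% to 0.0144% in the other SWNT libraries). SWNT replicate 4 was marked for its rRNA share of mitochondrial counts (1.27%, others 0.737% to 0.869%) and for that of the smaller rRNA alone (0.475%, others 0.312% to 0.331%).

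SWNT-SHP1i replicate 2 was marked for its low ND1 share of mitochondrial counts (2.18%, others 3.37% to 3.70%). SWNT-SHP1i replicate 6 was marked for its shares of COX2 (15.6%, others 9.44% to 10.8%) and COX3 (18.8%, others 13.8% to 15.2%).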

How the results depend on the processing

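Across all alternatives scaled to library or nuclear counts, edgeR, DESeq2 and limma-voom called 0 genes (6 with mitochondrial scaling over all libraries). The median log2 fold change of the 13 mRNAs was positive in each, from 0.15 without SWNT-SHP1i replicates 3 and 6 to 1.34 without SWNT replicate 3, and leaving out 1 library gave 0.30 to 1.34. With quality weights in limma-voom it was 0.47. The difference in mitochondrial share ran from 0.32 to 2.04 percentage points with 1 library left out, and that in rRNA share from -0.15 to 0.013. No member passed in any of 23 alternatives (smallest adjusted p = 0.325).

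Direction turned in 25 of 345 member values. Scaled to the mitochondrial total, by construction centred near 0, the smaller rRNA gave -0.27, the larger rRNA -0.056, COX1 -0.035, COX2 -0.013, ATP6 -0.0404, COX3 -0.0522, ND3 -0.0304, ND4L -0.24, ND4 -0.19 and CYTB -0.12. That scaling without SWNT-SHP1i replicate 3, chosen like the B9-only fit after seeing the data, gave -0.34 (smaller rRNA), -0.0621 (larger rRNA), -0.0184 (COX1), -0.0521 (ATP6), -0.0445 (COX3), -0.11 (ND3), -0.27 (ND4L), -0.22 (ND4) and -0.0684 (CYTB). Without that library on the usual scale, the smaller rRNA (-0.0411) and ND4L (-0.0494) turned (ranges with 1 library left out -0.0411 to 1.10 and -0.0494 to 1.08), and without replicates 3 and 6 the smaller rRNA (-0.0663), COX2 (-0.11), COX3 (-0.088) and ND3 (-0.10). Depth limits only ATP8 (29 to 1430 counts per library) and the tRNAs. No paired analysis was possible because replicate numbers were assigned in the order of listing and each label names a different animal.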
